A study of Mus musculus with 4 samples.

Results

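The 5 genes Hmgcs1, Mvk, Mvd, Idi1 and Fdps encode enzymes of the mevalonate pathway and of isoprenoid diphosphate synthesis, and their signals were followed in mouse liver across 2 genotypes and 2 diets. They were chosen by name, as every probe set annotated to any of them, which gave 9 of the 12488 probe sets of an Affymetrix MG_U74Av2 array. Of the 9, Fdps had 4, Mvk had 2, and Hmgcs1, Mvd and Idi1 had 1 each. The livers came from fed female mice killed at 8 months of age, either wild type or lacking hormone-sensitive lipase in the whole body (HSL-null, a knockout of the gene Lipe). Hormone-sensitive lipase releases fatty acids from stored acylglycerols and cholesterol from cholesteryl esters. For 6 months they had eaten a normal diet (ND), with 11% of its energy as fat, or a fat-rich diet (FD), with 58%. The 4 groups are called wt ND, wt FD, ko ND and ko FD, where wt is wild type and ko is HSL-null. Each group was 1 pool of livers, 6 in number except for ko FD with 4, and was read on 1 array. No group thus had a replicate, no difference could be tested, and higher or lower refers to these pools alone. Neither the strain nor the design of the targeted allele is given in the sources used here.

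The mevalonate pathway turns acetyl-CoA into the isoprene units from which cholesterol, ubiquinone, dolichol and the lipid tails of prenylated proteins are built. Hmgcs1 is the cytosolic HMG-CoA synthase at its start, Mvk is mevalonate kinase, and Mvd is the decarboxylase that makes isopentenyl diphosphate. Idi1 isomerises that unit to dimethylallyl diphosphate, and Fdps joins both into farnesyl diphosphate, the branch point towards sterols. In liver these genes are known targets of SREBP-2, a transcription factor that is released from the endoplasmic reticulum when sterols are low and that acts together with NF-Y and Sp1.

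The 250 bases before the start of 4 of the 5 genes (RefSeq, GRCm38.p6) are shown because the members are a textbook set of co-regulated sterol genes and these are the windows that were searched for the letters of their known factors. The Hmgcs1 window is chr13:119690101-119690350 on the + strand, the Mvk window chr5:114444019-114444268 on the + strand, the Mvd window chr8:122443423-122443672 on the - strand and the Idi1 window chr13:8885356-8885605 on the + strand. Each is written 5′ to 3′ along its gene. The 9-letter capital run in Hmgcs1 is a sterol regulatory element core, and the 5-letter capital runs are CCAAT boxes on either strand.
Hmgcs1: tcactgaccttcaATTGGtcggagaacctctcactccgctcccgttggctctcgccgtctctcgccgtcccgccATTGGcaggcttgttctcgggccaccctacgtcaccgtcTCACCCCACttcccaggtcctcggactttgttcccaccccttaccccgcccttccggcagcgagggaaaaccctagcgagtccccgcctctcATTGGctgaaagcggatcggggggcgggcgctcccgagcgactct
Mvk: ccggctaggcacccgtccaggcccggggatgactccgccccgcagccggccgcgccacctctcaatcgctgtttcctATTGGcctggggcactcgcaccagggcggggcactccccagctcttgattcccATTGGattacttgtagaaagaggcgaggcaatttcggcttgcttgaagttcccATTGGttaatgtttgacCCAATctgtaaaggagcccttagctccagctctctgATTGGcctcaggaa
Mvd: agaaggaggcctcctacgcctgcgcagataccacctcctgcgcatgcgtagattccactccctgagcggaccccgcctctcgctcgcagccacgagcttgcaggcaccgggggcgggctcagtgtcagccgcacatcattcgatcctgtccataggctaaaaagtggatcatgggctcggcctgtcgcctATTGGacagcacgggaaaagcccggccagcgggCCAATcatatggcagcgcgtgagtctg
Idi1: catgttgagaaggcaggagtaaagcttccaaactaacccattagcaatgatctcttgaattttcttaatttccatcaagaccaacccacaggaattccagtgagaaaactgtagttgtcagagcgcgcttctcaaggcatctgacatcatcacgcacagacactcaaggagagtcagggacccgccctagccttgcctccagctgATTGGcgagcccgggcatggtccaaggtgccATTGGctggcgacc

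Both strands were searched for TCACNCCAC (sterol regulatory element core), CCAAT (the NF-Y box), GGGCGG (the GC box read by Sp1) and CANNTG (the E-box). The sterol element letters were found in Hmgcs1 alone among the 4, between 137 and 129 bases before the start, and in 1.05% of the 32851 promoters of the table over the same 250 bases. All 4 windows held at least 2 CCAAT boxes, with 5 in Mvk, 3 in Hmgcs1 and 2 each in Mvd and Idi1. Among the 5034 promoters of genes kept for the ratios below, 34.9% held at least 1 CCAAT box and 12.8% at least 2. GC boxes numbered 2 in Hmgcs1 and Mvk and 1 in Mvd and Idi1, and 56.8% of the same promoters held at least 1. An E-box was present in Hmgcs1, Mvd and Idi1 and in 57.9% of those promoters. No motif in the list overlapped a sterol element, and 1 CCAAT box of Hmgcs1 shares letters with its E-box. A match describes the letters of a window and is no measured binding site.

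The signal is the deposited MAS5 value, a linear intensity per probe set. Low signals were raised to a floor of 6.1 (25th percentile of the non-control values) before ratios were taken on the log2 scale, and a probe set was kept where its mean over the arrays was at least 26.9. Each gene is represented by its brightest kept probe set, which gave 4829 genes with all 5 members among them. A gene counted as different at 2-fold, a log2 ratio of 1 in size. The only error estimate came from 687 genes with 2 or more kept probe sets, whose disagreement gave an SD of 0.298 for a log2 ratio, called the probe-set SD here. It leaves out error that an array shares and variation between animals. It is pooled over kept probe sets of all signal levels and is not specific to dim ones. Lipe read 28.0 in wt ND and 34.0 in wt FD against 11.9 in ko ND and 15.9 in ko FD, at a probe set under the filter. All 7 hepatocyte markers with a probe set were above the floor on 4 of 4 arrays. The run settings gave 1 chip lot and 2 solution lots, and no solution lot served both genotypes, so the lot cannot be told apart from the genotype. The ratio of 3′ to 5′ signal, a sign of RNA integrity, was between 0.838 and 0.867 for Gapdh and between 1.32 and 1.49 for beta-actin. The mean signal of the 18S ribosomal RNA control probe sets was higher on ND, at 192.2 in wt ND and 307.1 in ko ND against 84.2 in wt FD and 99.1 in ko FD.

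Hmgcs1, at the entry of the pathway, was lowest in wild-type liver on ND. It read 266.9 there, 452.2 in wt FD, 463.2 in ko ND and 421.7 in ko FD. The last 3 values lay close together, with gaps between neighbours of 0.10 and 0.035 on the log2 scale, both under the probe-set SD. The gap to wt ND was 0.66.

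Mvk was read in conflicting ways by its 2 probe sets, which the annotation ties to the same source sequence. The brighter, 95633_r_at, was nearly flat, with signals of 61.7 in wt ND, 67.3 in wt FD, 57.5 in ko ND and 59.4 in ko FD. None of its neighbouring levels differed by more than the probe-set SD. The dimmer, 95632_f_at, had 15.0, 52.5, 26.1 and 13.6 in the same order, a span of 3.86-fold from ko FD to wt FD. Its mean of 26.8 fell just short of the filter, so the flat probe set represents Mvk in the counts. The suffix _f marks probes shared within a gene family and _r a set for which the probe selection rules were relaxed, so both readings of Mvk are uncertain.

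Mvd, whose product makes isopentenyl diphosphate, spanned the widest range of the kept member probe sets, 4.92-fold. It read 25.2 in wt ND, 58.1 in wt FD, 42.5 in ko ND and 11.8 in ko FD. All 3 gaps between neighbours in that order of levels, 1.09, 0.75 and 0.45 on the log2 scale from the lowest upwards, exceeded the probe-set SD. That SD is not specific to signals this dim. A floor at the median of all values, 26.7, would raise both ko FD and wt ND to it, and the largest gap would vanish. The values are dim, and the lowest is near the floor.

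Idi1, the isomerase, had signals of 249.0 in wt ND, 366.9 in wt FD, 228.2 in ko ND and 102.4 in ko FD. The 2 pools on ND differed by 0.13 on the log2 scale, less than the probe-set SD. ko FD stood below them and wt FD above them, by gaps of 1.16 and 0.56.

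Fdps, the farnesyl diphosphate synthase, was high in 3 pools and low in ko FD. Its brightest probe set, 99098_at, had 1133.2 in wt ND, 1210.6 in wt FD, 1312.4 in ko ND and 375.2 in ko FD. The second, 160424_f_at, had 728.1, 794.2, 1000.8 and 272.4 in that order. After centring each probe set on its mean, these 2 profiles differed by a root mean square of 0.10 on the log2 scale. The suffix _f of the second marks probes shared within a gene family, the limit given for Mvk. The remaining 2 probe sets of Fdps gave no usable level, since 162217_r_at had signals from 5.0 to 8.2 and 162281_at had 14.2 in wt ND and 3.3 to 4.2 elsewhere.

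**Figure D1:**
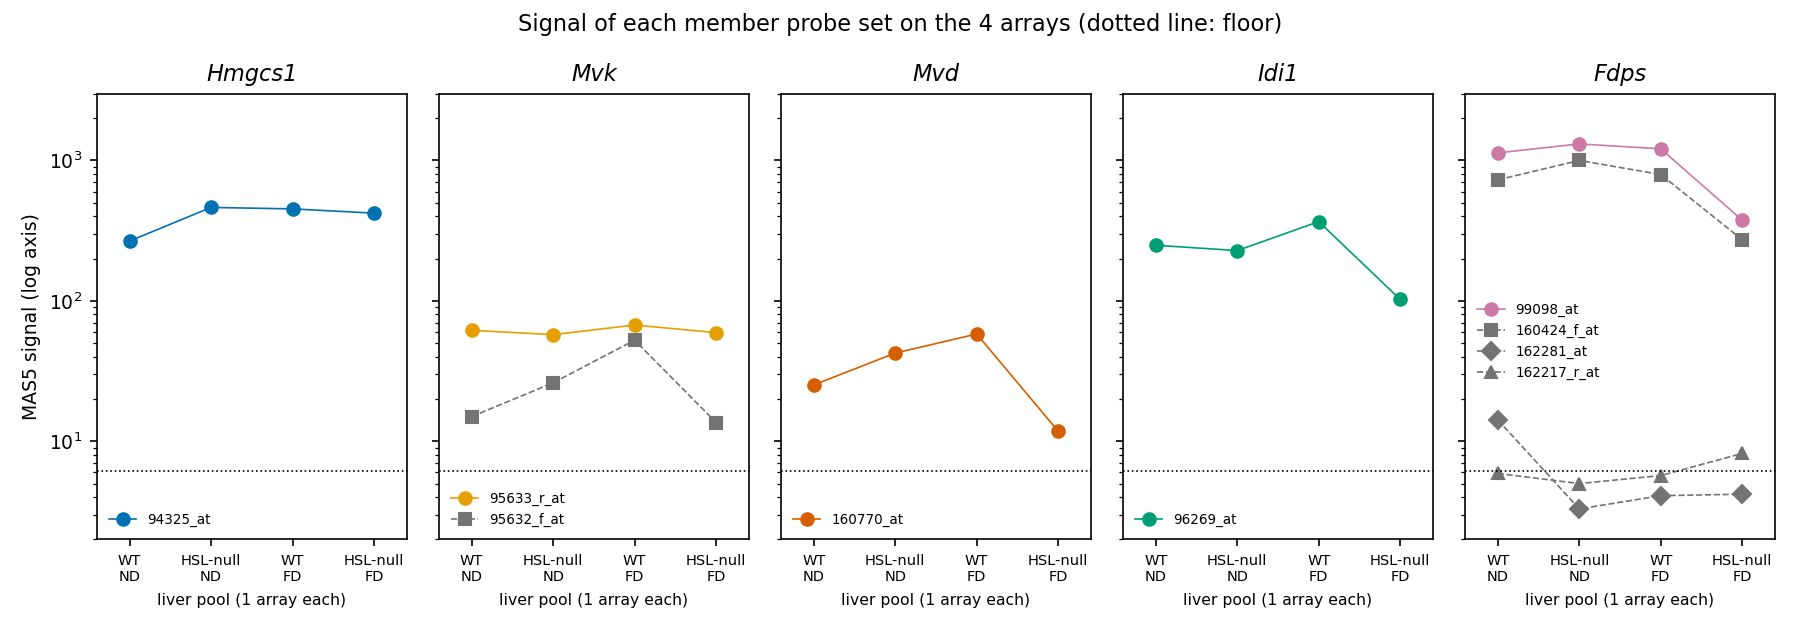
MAS5 signal (log axis) of the 9 probe sets of Hmgcs1, Mvk, Mvd, Idi1 and Fdps in the 4 liver pools, 1 array each. The coloured solid line marks the probe set that represents the gene, grey dashed lines the other probe sets, and the dotted line the floor of 6.1; Mvd, Idi1 and both bright Fdps probe sets are lowest in ko FD.

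On FD, HSL-null liver had lower signals than wild type for the late members of the pathway segment. Mvd was 4.92-fold lower, Idi1 3.58-fold lower and Fdps 3.23-fold lower, with log2 ratios of -2.30, -1.84 and -1.69. Hmgcs1 and Mvk, the early members, had -0.10 and -0.18, within the probe-set SD. So 3 of the 5 members were 2-fold or more lower and none higher, where 0.953% of the 4829 genes were lower by that much and 1.86% higher. All 5 were below 0, as were 41.5% of all genes. The median log2 ratio of the members was -1.69, and that of all genes 0.067. Counted from the lowest ratio, Mvd ranked 5, Idi1 10 and Fdps 15 of the 4829 genes, while Mvk ranked 1099 and Hmgcs1 1445. Mvd entered the count and the ranks only through its high signal in wt FD, an array of this comparison. With the filter minimum raised to 53.9, Mvd was left out. Then 2 of the 4 members left were 2-fold or more lower, beside 30 of 3588 genes.

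A factor common to all signals of an array cancels in the contrast within the segment, since both ratios come from the same 2 arrays. An error that varies with signal level, or the floor, does not cancel. The log2 ratio of Hmgcs1 exceeded that of Fdps by 1.59, that of Idi1 by 1.74 and that of Mvd by 2.20. For 2 genes with independent error, the probe-set SD gives 0.421 for such a difference. Mvd and Idi1 differed by 0.46 and Idi1 and Fdps by 0.15. Read by 95632_f_at, Mvk had a ratio of -1.95, so that 4 of the 5 members would be 2-fold lower, and the flat early step would be Hmgcs1 alone. With the floor raised to the median of all values, Mvd had -1.12 and Hmgcs1 -0.10. With cyclic loess, a scaling that varies with signal level, Mvd had -2.47 and Hmgcs1 -0.098. In liver RNA of whole pools, fewer cells of a type and less RNA per cell cannot be told apart. Hepatocyte markers had a median log2 ratio of -0.022 on FD over 7 genes. Summed signals of the 10 macrophage markers were 2197.9 in wild type and 2800.4 in HSL-null liver on FD, none at or under the floor, and of the 7 stellate cell markers 1429.6 and 1776.7. The 7 lymphocyte markers summed to 93.6 and 153.5, with 3 and 2 of them at or under the floor, and the 2 that were kept had a median log2 ratio of 1.01. The 4 endothelial markers summed to 170.4 and 194.0. Their part in the lower enzyme signals was not tested.

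On ND, HSL-null liver did not show this pattern. Hmgcs1 was 1.74-fold and Mvd 1.69-fold higher than in wild type, with log2 ratios of 0.80 and 0.75, past the probe-set SD but short of 2-fold. Fdps had 0.21, Mvk -0.10 and Idi1 -0.13, all within that SD. With arrays scaled to their medians, Mvk had 0.029 and Idi1 0.0044, both under the median of all genes, then 0.11. None of the 5 members was 2-fold higher or lower, where 0.497% of all genes were higher and 1.08% lower. The ratio was above 0 for 3 of the 5 and for 47.3% of all genes. The median of the members was 0.21 and that of all genes -0.018. The second Fdps probe set had 0.46, and the dimmer Mvk probe set 0.80. The wild-type ND array stood apart in exocrine pancreas markers, whose summed signal over 7 genes was 967.8 there and 330.5 to 383.8 on the other arrays. None of these 7 was at or under the floor in wt ND or ko ND, and 1 was in wt FD and in ko FD. Cela1 was highest in ko FD, at 184.1 against 158.5 in wt ND. The summed signal of the 7 hepatocyte markers was also highest in wt ND, at 23794.9 against 17710.3 to 20212. The part of these levels in the ratios on ND was not tested.

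**Figure D2:**
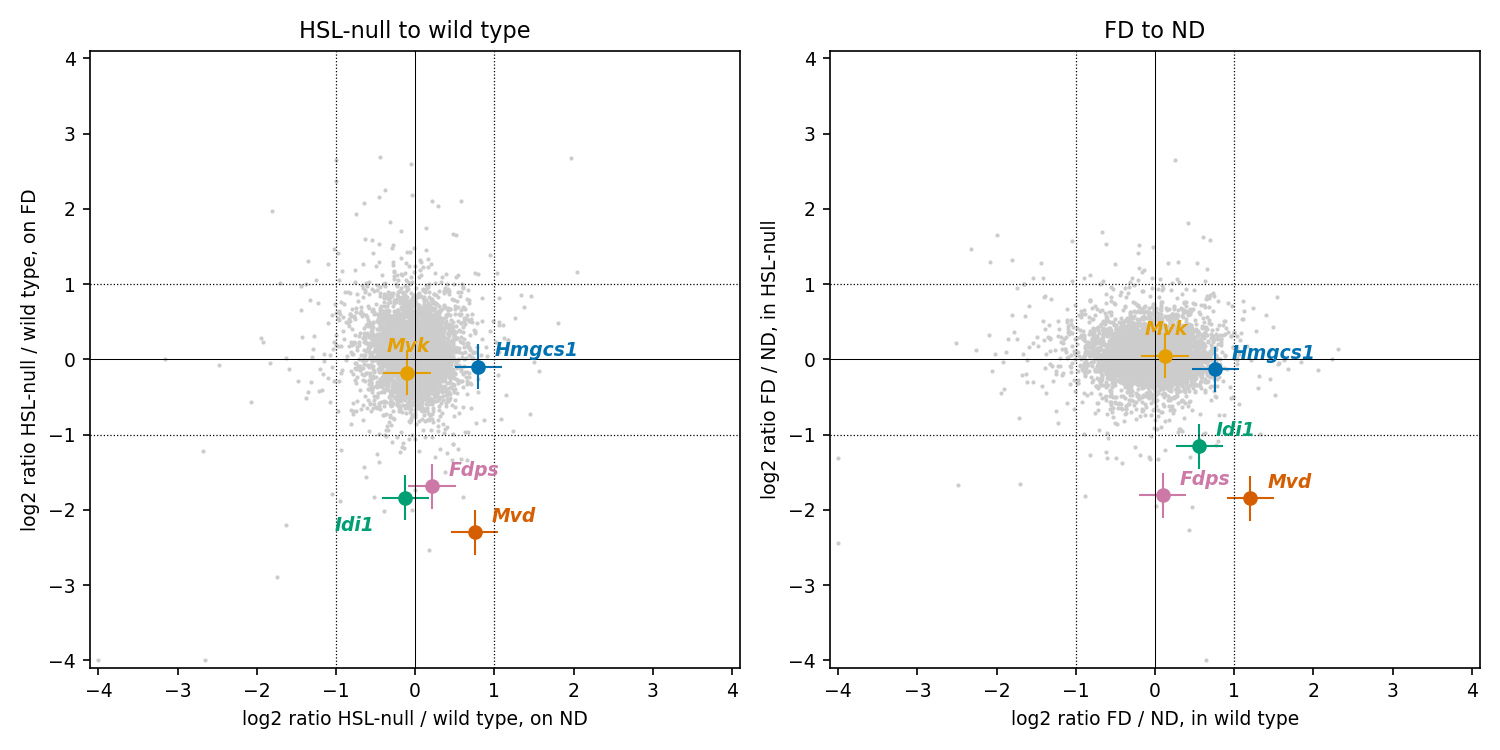
Log2 ratios of the 5 members (coloured, bars of 1 probe-set SD, 0.298) over the other genes kept (grey, drawn at 4 where larger in size), for genotype on each diet (left) and diet in each genotype (right). Dotted lines mark 2-fold; Mvd, Idi1 and Fdps lie below -1 on FD and in HSL-null liver, while Hmgcs1 and Mvk stay within the probe-set SD of 0 on those axes.

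In wild-type liver, the members were higher on FD than on ND or close to it. Mvd was 2.31-fold higher, with a log2 ratio of 1.21, Hmgcs1 had 0.76 and Idi1 0.56, past the probe-set SD. Mvk and Fdps had 0.13 and 0.095, within it. Mvd was the only member past 2-fold, where 0.787% of all genes were higher by that much and 2.36% lower, and with a pseudocount of 16 in place of the floor its ratio was 0.85. Mvd passed the filter only through wt FD, the array on which it was higher here. All 5 were above 0, against 44.0% of all genes, whose median was -0.047. By 95632_f_at, Mvk was 3.50-fold higher on FD. This comparison uses the wild-type ND array, which had the highest summed pancreas signal. Kept markers had median log2 ratios of -1.41 for exocrine pancreas (7 genes), -1.35 for lymphocytes (2) and -0.43 for hepatocytes (7). Medians were -0.42 for macrophages (9), -0.30 for endothelium (3), -0.20 for stellate cells (6) and -0.043 for red blood cells (4). The 1 kept adipocyte marker had 0.14. The mean of the 18S control probe sets was 192.2 in wt ND and 84.2 in wt FD. The part of these levels in the enzyme ratios was not tested.

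In HSL-null liver, Mvd, Idi1 and Fdps were lower on FD than on ND. Mvd went from 42.5 on ND to 11.8 on FD and was 3.60-fold lower, Fdps was 3.50-fold lower and Idi1 2.23-fold lower. Their log2 ratios were -1.85, -1.81 and -1.16, and ranked 6, 8 and 25 from the lowest of 4829. Hmgcs1 had -0.14 and Mvk 0.047, and the latter was below 0 under all 3 other scalings. The count of 3 of 5 stood beside 0.621% of all genes 2-fold or more lower, with no member and 0.828% of genes higher. Below 0 were 4 of the 5 members and 42.8% of all genes. With the floor at the median, Mvd had -0.67 and no longer counted. With the filter minimum at 53.9, which left Mvd out, 2 of the 4 members left were lower by 2-fold, beside 22 of 3588 genes. Both arrays of this comparison shared a solution lot. Their exocrine pancreas markers summed to 330.5 in ko ND and 383.8 in ko FD, lower than in wt ND but not absent. The pools differed in the number of livers, 6 on ND and 4 on FD. Kept markers had median log2 ratios of 0.62 for lymphocytes (2 genes), 0.37 for red blood cells (4), 0.33 for stellate cells (6), -0.059 for macrophages (9) and -0.18 for hepatocytes (7) in this comparison. The mean of the 18S ribosomal RNA control probe sets was 307.1 in ko ND and 99.1 in ko FD. The part of these levels in the lower enzyme signals on FD was not tested.

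The genotype log2 ratio on FD minus that on ND was -3.05 for Mvd, -1.90 for Fdps, -1.72 for Idi1, -0.90 for Hmgcs1 and -0.078 for Mvk. These differences use all 4 arrays and have no test. Their SD from probe-set disagreement was 0.426. A difference of -1 or lower was found for 3 of the 5 members and for 1.39% of all genes, and one of 1 or higher for no member and 4.93% of genes. By this measure Mvd ranked 2 from the lowest of 4829, though it passed the filter only through its high signal in wt FD. A ratio above 0 on ND and below 0 on FD was found for Hmgcs1, Mvd and Fdps and for 21.1% of all genes. Mvd, Idi1 and Fdps were lowest in ko FD, as were 19.9% of genes, and for Mvd and Idi1 wt FD was also the highest, an order found in 8.64% of genes. For Fdps the other 3 pools lay within 0.21 of each other on the log2 scale by 99098_at and within 0.46 by 160424_f_at, where ko ND stood above wt FD by 0.33, past the probe-set SD. The log2 signal in ko FD minus the mean of the other 3 pools was -1.75 for Mvd, -1.70 for Fdps, -1.43 for Idi1 and 0.14 for Hmgcs1.

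The enzymes that follow Fdps on the way to cholesterol were set beside the members. Of 12 listed genes from squalene synthase onwards, 11 had a kept probe set. On FD, all 11 were lower in HSL-null than in wild-type liver, 7 of them by 2-fold or more, where 41.5% of all genes were lower and 0.953% by 2-fold. Their median log2 ratio was -1.19 where all genes had 0.067. Sqle, the squalene epoxidase, had -1.83 and Fdft1, which commits farnesyl diphosphate to sterols, -1.06. The sterol reductase gene Tm7sf2 had -1.74 by its brightest probe set and -1.08 by its second. On ND, 9 of the 11 were above 0, against 47.3% of all genes. All 11 were when arrays were scaled to their medians, which moved the median of all genes to 0.11. None was 2-fold higher, against 0.497% of genes, and Cyp51, the lanosterol demethylase, was highest with 0.80. In wild-type liver all 11 were higher on FD than on ND, with Msmo1, a sterol methyl oxidase gene, at 1.51 and Cyp51 at 1.33 past 2-fold. Of all genes, 44.0% were higher in that comparison and 0.787% by 2-fold. In HSL-null liver all 11 were lower on FD, against 42.8% of all genes, and 4 were so by 2-fold or more, against 0.621%, with Sqle at -1.96. That 4 became 6 under each of the 3 other scalings, 3 with the pseudocount and 2 with the mean of each gene's probe sets. The 11 genes lay below 0 on FD for genotype under each of the 3 other scalings too. These comparisons share arrays with those of the members and each other, and the list was drawn up with earlier results known.

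**Figure D3:**
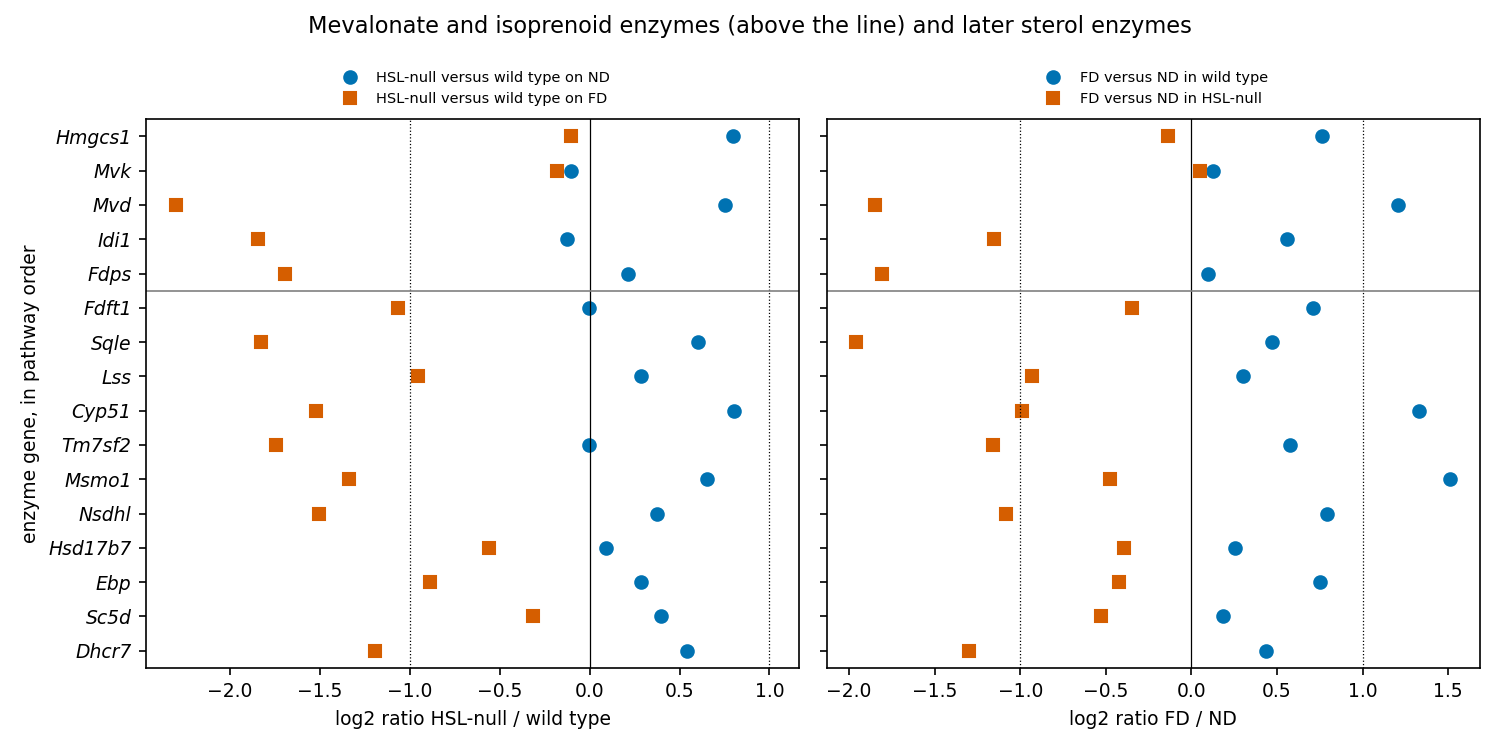
Log2 ratios of the 5 members (above the line) and of 11 later enzymes of cholesterol synthesis, in pathway order, for genotype on ND (circles) and FD (squares) on the left, and for diet in wild type (circles) and HSL-null (squares) on the right. Dotted lines mark 2-fold; on FD all 16 genotype ratios lie below 0, with Hmgcs1 at -0.10 the nearest to it.

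Genes of the neighbouring steps and of sterol sensing were less well covered. Pmvk, Acat2, Idi2, Srebf2, Scap and Insig2 were not analysed here. Ggps1, which extends farnesyl to geranylgeranyl diphosphate, had 16.4, 23.1, 21.3 and 24.4 in wt ND, wt FD, ko ND and ko FD, under the filter. Its second probe set, also under the filter, read 15.0, 7.3, 11.8 and 14.5. Insig1, which retains SREBP in the endoplasmic reticulum, was at or under the floor on all 4 arrays. Srebf1, the gene of SREBP-1, had signals of 690.6, 737.3, 601.7 and 878.3 in that order of pools, and was thus highest where Mvd, Idi1 and Fdps were lowest. Its log2 ratio for genotype was -0.20 on ND and 0.25 on FD, both within the probe-set SD. For diet it was 0.094 in wild type, within that SD, and 0.55 in HSL-null liver, past it. The genotype ratio on FD minus that on ND was 0.45, where the SD of such a difference was 0.426. Mbtps1, a protease that activates SREBP, ranged from 122.2 to 143.2.

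Likeness of pattern was measured over the 4 arrays as the root mean square difference between log2 profiles, each centred on its gene's mean. With 4 points, many genes can lie close by, so the names describe these arrays only. The 10 genes nearest to the mean profile of the members were H3c14, Golga3, Prkag1, Nsdhl, Lss, Psapl1, Ropn1l, Snrpb2, Gstm6 and Dhcr7, at differences from 0.0702 to 0.138. Of these, Nsdhl, Lss and Dhcr7 are sterol enzymes of the list above. For Mvd the 3 nearest genes were Sqle, Nsdhl and Tm7sf2, all from that list, at 0.274 to 0.334. Idi1 was nearest to Tm7sf2, at 0.0557, then to 0610005C13Rik and Tef. Fdps was nearest to Cyp2c39, a cytochrome P450 gene, at 0.155, then to Sqle and Cyp17a1. Hmgcs1 had Sox4, Pgd and Tprgl as its nearest genes, of which Pgd encodes an enzyme of the pentose phosphate pathway, and the flat Mvk probe set had Slc30a3, Parl and Cdt1. No sterol enzyme of the list was among the 3 nearest to Hmgcs1 or to Mvk. Among the members' own kept profiles, Idi1 and Fdps were the closest pair of different genes, at 0.308.

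**Figure D4:**
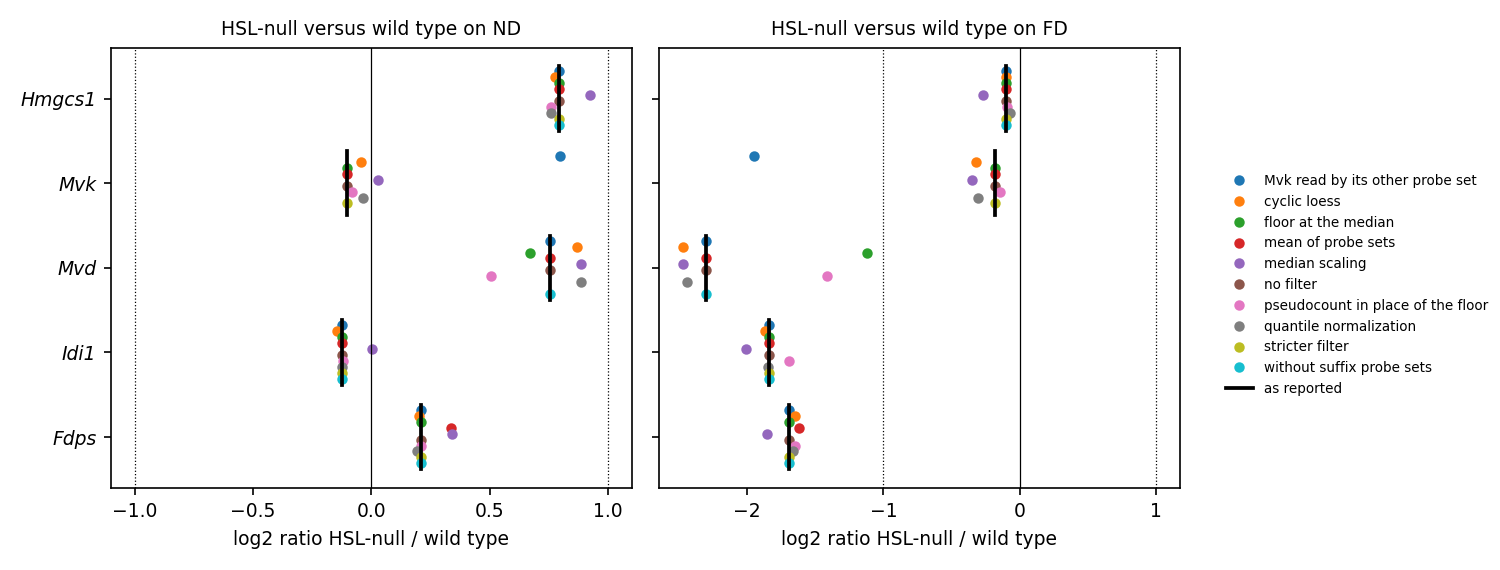
Genotype log2 ratio (HSL-null over wild type) for each member on ND (left) and FD (right), as reported (black bar) and under 10 other settings (dots). On FD, Mvd, Idi1 and Fdps stay below -1 under every setting that measured them, and Mvk moves from -0.18 to -1.95 when read by its other probe set.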

How the data were processed

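Liver RNA of 4 pools was labelled with biotin and hybridised to 4 MG_U74Av2 arrays, per the labels' protocols and the file headers. The values deposited by the authors are linear intensities, 1 for each probe set on each array, and the submitters' processing notes name MAS5 without a version. With the top and bottom 2% left out, every array had a mean of 99.97, so a scaling to the same mean had been done before deposit.

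Of 12422 non-control probe sets, 10833 had 1 gene in the platform annotation, 396 several and 1193 none, and only the first were named. Their gene identifiers matched a RefSeq table (GRCm38.p6) for 10817. The floor, the filter, the brightest probe set and the 2-fold limit are those given in the report. Ratios were computed in Python 3.11.15 with pandas 2.3.3, and other scalings with limma 3.58.1. The procedure was tested on simulated data with noise of the same size at every signal level. Recovery was scored only for genes well above the floor, so values as dim as those of Mvd were not covered. As each group had 1 array, no test was run, and precision is limited by the number of arrays.

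The members and gene lists were chosen with earlier results of these data known. Named genes were every member probe set, Lipe, up to 4 genes with the largest ratios of each pathway list plus fixed genes, and the nearest genes in pattern. Other genes of the lists were named after their values were seen. Alternatives were 3 other scalings, 2 treatments of low signals, 2 filters and 2 choices of probe set, and 1 more, the other Mvk probe set, was added after seeing the data.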

Additional observations from a re-analysis of the deposited data

Results flagged for a closer look

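Mvd went opposite ways by genotype on the 2 diets. Its genotype log2 ratio (HSL-null over wild type) was 0.75 on ND and -2.30 on FD, each past the probe-set SD of 0.298, a difference of -3.05. With 1 array per group this difference was not tested. Mvd passed the filter only through its high signal in wt FD, and the probe-set SD is not specific to signals as dim as those of Mvd. Hmgcs1 and, by its brightest probe set, Fdps also had ratios above 0 on ND and below 0 on FD, but 1 of their 2 ratios lay within that SD. By 160424_f_at, whose suffix _f marks probes shared within a gene family, Fdps had 0.46 on ND and -1.54 on FD, both past that SD. So were the 0.80 and -1.95 of Mvk by 95632_f_at, the probe set under the filter. A ratio above 0 on ND and below 0 on FD, of whatever size, was found in 21.1% of all genes.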

How the results depend on the processing

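Of the counts of members, their medians and the differences between genotype ratios, 156 values under other settings stayed near the reported ones and 12 moved, while none reversed a 2-fold difference. A count that went from 3 to 2 or to 4 was held to be near. Many of the 156 could not move, since dropping the filter left each member's probe set as it was. Among the members, the mean of probe sets could change only Fdps, and the other Mvk probe set only Mvk. With the floor at the median, the members' median was -1.12 for genotype on FD and -0.67 for diet in HSL-null liver, and the difference between genotype ratios of Mvd was -1.79. With a pseudocount of 16 that difference was -1.92, and 0 members were 2-fold higher on FD in wild type. The stricter filter, which left out Mvd, gave medians of -0.94 for genotype on FD and -0.65 for diet in HSL-null liver, and 0 members 2-fold higher on FD in wild type. Without suffix probe sets, which left out Mvk, the median for diet in HSL-null liver was -1.48. With Mvk read by its other probe set, an alternative chosen after seeing the data, the median for genotype on ND was 0.75, 2 members were 2-fold higher on FD in wild type, and the difference for Mvk was -2.75. Median scaling moved the median of all genes to 0.11 for genotype on ND, -0.10 for genotype on FD and -0.12 for diet in HSL-null liver. Counts over all genes varied more, but the settings also kept different numbers of genes. These were 4829 as reported, 3588 under the stricter filter, and 8251 without the filter or with the other Mvk probe set. The upper end of each range given next came from a run on 8251 genes. Genes 2-fold lower by genotype on FD numbered 46 as reported and 28 to 143 otherwise, and those higher 90 and 35 to 277. By genotype on ND the counts were 52 lower (14 to 218) and 24 higher (9 to 95), by diet in wild type 114 lower (48 to 336) and 38 higher (21 to 145), and by diet in HSL-null liver 30 lower (19 to 103) and 40 higher (14 to 187). Of the genes past 2-fold, the share that was higher was 31.6% for genotype on ND, 66.2% for genotype on FD, 25% for diet in wild type and 57.1% for diet in HSL-null liver, and under median scaling 45.5%, 41.5%, 45.2% and 31.4%. No paired analysis was possible because each group had 1 array. Signals near the floor limit Mvd and the dimmer Mvk probe set.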

Other observations

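Of 13 listed genes that use isoprenoid diphosphates or act on prenylated proteins, 4 had a kept probe set. None of the 4 was 2-fold different in any of the 4 comparisons, but few of all genes were either, between 0.497% and 2.36% in each direction. Icmt, which methylates prenylated proteins, was under the filter, with signals of 6.4 in wt ND, 20.1 in wt FD, 16.3 in ko ND and 15.2 in ko FD. Fnta, a subunit of the prenyltransferases that attach farnesyl and geranylgeranyl groups, had signals of 192.0 in wt ND, 175.2 in wt FD, 151.9 in ko ND and 145.6 in ko FD. Rce1, the protease that trims prenylated proteins, had 61.6, 42.6, 49.9 and 29.3 in the same order, with a log2 ratio for diet in HSL-null liver of -0.77. Rabggtb, a subunit of the Rab prenyltransferase, had genotype ratios of 0.61 on ND and 0.43 on FD, and Rabggta -0.10 and -0.17.

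Of 10 listed genes of sterol efflux, storage and conversion, 5 had a kept probe set. Abca1, the transporter that loads cholesterol onto apolipoprotein A-I, was by its brighter probe set lowest in wt FD and highest in ko FD, with signals of 366.1 in wt ND, 240.9 in wt FD, 324.0 in ko ND and 463.1 in ko FD. Its second kept probe set was lowest in wt FD too but highest in wt ND, with 128.6, 78.9, 96.5 and 122.9 in the same order. The genotype ratio on FD was 0.94 by the first and 0.64 by the second, and that of the related transporter gene Abcg1 was 0.35. Cyp7a1, the rate-limiting enzyme of bile acid synthesis, was higher on FD in both genotypes, with log2 ratios of 0.66 in wild type and 1.21 in HSL-null liver. Nr1h3, the gene of the sterol-sensing receptor LXR-alpha, had genotype ratios of -0.21 on ND and -0.28 on FD, within the probe-set SD.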
